A study of Mus musculus with 15 samples.

Results

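The genes described here are the 10 genes of MHC class II antigen presentation named Ciita, H2-Aa, H2-Ab1, H2-Eb1, Cd74, H2-DMa, H2-DMb1, H2-DMb2, H2-Oa and H2-Ob. They were chosen by symbol, and all 10 were among the 23420 symbols of the deposited expression table and among the 13592 genes that passed the filter on low values (at least 1 TPM in at least 3 libraries). MHC class II molecules carry peptides from engulfed and endosomal proteins to the cell surface, where CD4 T cells read them. Dendritic cells, B cells and macrophages are their usual carriers, and many other cells, melanoma cells included, can make them when exposed to interferon gamma. In the classical order of events Ciita, the master coactivator, switches the genes on, an alpha and a beta chain pair with the invariant chain Cd74, and the DM and DO proteins then control which peptide is loaded.

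Bulk RNA was sequenced from mouse melanoma grafts, tumours grown from melanoma cells in mice of the same strain. Cells (1000000 per flank) were placed in female C57BL/6 mice aged 8 weeks, and the tumours of the left flanks were treated. The 15 libraries form 5 groups of 3. UV2 anti-PD-1 and UV2 isotype tumours came from line D3UV2, and parental triple therapy, anti-PD-1 and isotype tumours from line D4M.3A.3. Each line is 1 cell line, so a difference between the lines cannot be told apart from other differences between those 2 cell stocks. UV2 cells carry putative neoantigens made by UVB light. Anti-PD-1 antibody blocks PD-1, a brake on T cells, and the isotype antibody is its control. Antibody, with imiquimod (a cream that activates Tlr7) or lotion, was given on days 8, 10 and 12, laser treatment (ablative fractional photothermolysis, which removes small columns of skin) on days 8 and 12, and tumours were taken on day 13. The labels disagree on triple therapy. Both versions name imiquimod and the laser, but the sample characteristics add anti-PD-1 and the treatment protocol adds isotype antibody. Whether the 3 libraries of each group are from different animals is not stated in the labels, so p-values reflect only the spread between these samples.

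Values are TPM, transcript abundances that are scaled for transcript length and relative to all transcripts of a library. Their read depth is unknown. In bulk tumour RNA, more cells of a type and more RNA per cell cannot be told apart. Libraries correlated with each other at 0.820 to 0.990. Of 7 melanocyte genes, Mitf (5.28 to 14.15 TPM) and Tyr (1.49 to 4.57 TPM) passed the filter on low values and Sox10, Tyrp1, Dct, Pmel and Mlana did not. Skeletal muscle genes differed widely within groups (Acta1, a muscle actin, 0 to 310.57 TPM), and keratinocyte genes were high in parental triple therapy (Krt14, 11620.36, 85.65 and 844.88 TPM). Libraries also differed in a trend with transcript length, measured as the change in log2 level per doubling of a gene's longest annotated transcript over 10071 genes. It averaged -0.25 ± 0.18 in UV2 anti-PD-1, -0.08 ± 0.21 in UV2 isotype, 0.10 ± 0.02 in parental triple therapy, 0.15 ± 0.10 in parental anti-PD-1 and 0.07 ± 0.25 in parental isotype (SD, n = 3 each). A negative value means that short transcripts stood relatively higher. The trend moved with the class II genes, as described beside the results it touches.

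Of the 10 genes, 8 lie on chromosome 17 (GRCm38, GENCODE M21), all within the MHC region. H2-Oa (chr17:34092340-34095234), H2-DMa (chr17:34119541-34139101), H2-DMb2 (chr17:34143307-34151555), H2-DMb1 (chr17:34153072-34160230), H2-Ob (chr17:34238903-34254414), H2-Ab1 (chr17:34257689-34269419) and H2-Eb1 (chr17:34305867-34316674) are on the plus strand. H2-Aa (chr17:34282744-34287823) is on the minus strand. Ciita is on chromosome 16 (chr16:10480059-10528418, plus strand), and Cd74 also lies outside the MHC region. C57BL/6 mice make no I-E alpha chain. The gene for it, annotated as H2-Ea-ps (chr17:34341959-34344645), was listed at 0 TPM in all 15 libraries, and the further beta chain gene H2-Eb2 (chr17:34325665-34341412) was at 0.07 to 1.66 TPM.

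Class II promoters are known for a shared row of short elements, among them an X2 box that resembles a cyclic AMP response element and a Y box bound by NF-Y. RefSeq promoter windows (GRCm38.p6, from 250 bases before to 50 after the start) matched 7 of the 10 genes. The RefSeq starts are not always the GENCODE gene starts given above. The stretches shown for H2-DMa, H2-DMb1 and H2-DMb2 lie inside the GENCODE genes, and that of H2-Oa crosses the gene start. Annotated exons hold 30 of 30 bases of the H2-DMb1 stretch and 14 of 30 of the H2-Oa stretch. The stretches around the Y box letters are shown because these genes moved together across libraries. Capitals mark ATTGG, the core of the Y box, or CTGATTGG where these letters were present. In H2-Eb1 they also mark CCAAT, which is ATTGG read on the other strand, and a match to an X box pattern, the element upstream of the Y box that RFX binds.
H2-Aa, chr17:34287824-34287933, minus strand: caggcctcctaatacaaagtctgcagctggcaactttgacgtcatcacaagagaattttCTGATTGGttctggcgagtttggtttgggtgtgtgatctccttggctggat
H2-Eb1, chr17:34305757-34305866, plus strand: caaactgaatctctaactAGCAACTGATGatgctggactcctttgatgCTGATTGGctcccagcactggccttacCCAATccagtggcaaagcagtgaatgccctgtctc
H2-DMa, chr17:34125308-34125337, plus strand: ttctaggtctggATTGGgaccaaagaattg
H2-DMb1, chr17:34153118-34153147, plus strand: attcactcagtgATTGGtctgacctgccta
H2-DMb2, chr17:34145147-34145176, plus strand: agtcacttagtgATTGGactgacttaacta
H2-Oa, chr17:34092324-34092353, plus strand: agaactgctCTGATTGGctgcttaccgcaa
H2-Ob, chr17:34238795-34238901, plus strand: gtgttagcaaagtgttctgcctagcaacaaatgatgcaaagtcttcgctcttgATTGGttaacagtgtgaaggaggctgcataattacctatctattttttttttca
Searched on both strands of the full windows, ATTGG was present in 7 of 7 genes (7 of their 8 windows), against 37.4% of all 32851 windows. CTGATTGG, which contains ATTGG, was present in 3 of 7 (H2-Aa, H2-Eb1 and H2-Oa), against 4.1% of windows. The X box pattern, of which H2-Eb1 shows one form, was present in 3 of 7 (H2-Oa, H2-DMb1 and H2-Eb1), against 0.968% of windows. The H2-DMb1 and H2-DMb2 stretches are identical at 24 of 30 bases. These 2 genes are close paralogs, so the division of reads between them is uncertain.

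The first question was how much class II message each tumour held. UV2 anti-PD-1 tumours held the most, parental triple therapy and parental isotype tumours the least, and the other groups lay between. Together the 10 genes made up 2.52%, 2.11% and 2.67% of all TPM in UV2 anti-PD-1, 0.389%, 1.78% and 1.28% in UV2 isotype, 0.184%, 0.230% and 0.343% in parental triple therapy, 0.609%, 0.665% and 0.247% in parental anti-PD-1, and 0.211%, 0.190% and 0.694% in parental isotype. Within 3 of the groups 1 library stood apart. UV2 isotype replicate 1 and parental anti-PD-1 replicate 3 were low in their groups, and parental isotype replicate 3 was high.

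**Figure D1:**
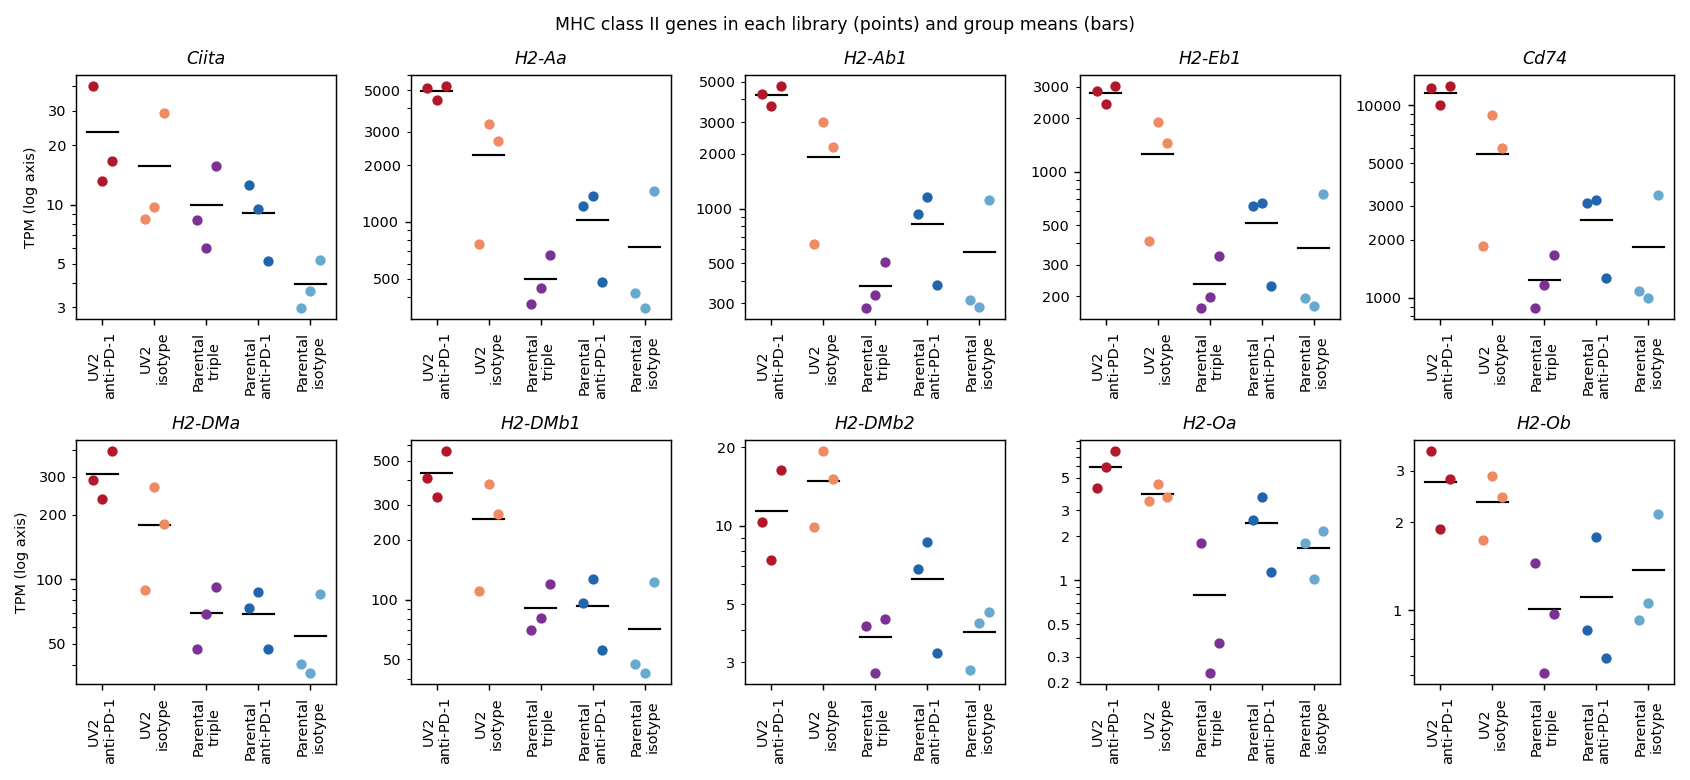
TPM of the 10 class II genes in each library (points, replicates 1 to 3 from left to right) with group means (bars), on log axes that differ between panels. The 3 UV2 anti-PD-1 libraries lie above every other library for Cd74, H2-Aa, H2-Ab1 and H2-Eb1, and UV2 isotype replicate 1 lies among the parental libraries for these 4 genes.

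H2-Ab1, which encodes the I-A beta chain, was at 4298.55, 3667.51 and 4765.78 TPM in UV2 anti-PD-1, 637.67, 2987.14 and 2180.74 TPM in UV2 isotype, 282.38, 332.83 and 509.31 TPM in parental triple therapy, 931.78, 1151.96 and 379.15 TPM in parental anti-PD-1, and 313.86, 284.78 and 1120.45 TPM in parental isotype. The UV2 anti-PD-1 libraries did not overlap any other group, and the 3 parental groups overlapped one another. H2-Aa, its alpha chain partner, averaged 4934 ± 463 TPM in UV2 anti-PD-1, 2258 ± 1332 in UV2 isotype, 494 ± 157 in parental triple therapy, 1026 ± 479 in parental anti-PD-1 and 739 ± 617 in parental isotype (SD, n = 3). H2-Eb1, the I-E beta chain, averaged 2758 ± 333, 1253 ± 766, 235 ± 89.1, 513 ± 248 and 373 ± 325 TPM in the same order of groups. Its message was thus abundant in tumours where that of its alpha chain partner was listed at 0.

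Cd74, the invariant chain that blocks and escorts new class II molecules, was the most abundant of the 10. It was at 12232.30, 9997.30 and 12616.83 TPM in UV2 anti-PD-1, 1857.66, 8881.03 and 5976.75 TPM in UV2 isotype, 883.76, 1167.90 and 1675.13 TPM in parental triple therapy, 3105.24, 3207.71 and 1270.57 TPM in parental anti-PD-1, and 1088.49, 1001.55 and 3395.55 TPM in parental isotype. Among all genes of a library, Cd74 ranked 1, 1 and 4 in UV2 anti-PD-1, 87, 6 and 7 in UV2 isotype, and between 21 and 170 in the 9 parental libraries. For Cd74, H2-Aa, H2-Ab1 and H2-Eb1 the order of group means was UV2 anti-PD-1, UV2 isotype, parental anti-PD-1, parental isotype, parental triple therapy. The step from UV2 anti-PD-1 down to UV2 isotype was the only neighbouring step without overlapping libraries for these 4 genes.

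Ciita followed another order. It was at 40.17, 13.17 and 16.71 TPM in UV2 anti-PD-1, 8.49, 9.71 and 29.14 TPM in UV2 isotype, 8.33, 5.99 and 15.68 TPM in parental triple therapy, 12.53, 9.53 and 5.16 TPM in parental anti-PD-1, and 2.98, 3.65 and 5.25 TPM in parental isotype. Parental triple therapy ranked above both other parental groups here and last for the chains, and every neighbouring step overlapped. The highest Ciita library, UV2 anti-PD-1 replicate 1, did not have the highest H2-Ab1.

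H2-DMa and H2-DMb1 encode the chains of DM, which removes the invariant chain remnant and edits the peptide. H2-DMa was at 290.58, 236.00 and 395.55 TPM in UV2 anti-PD-1, 89.18, 268.55 and 180.27 TPM in UV2 isotype, 47.29, 68.73 and 92.17 TPM in parental triple therapy, 73.52, 86.96 and 47.39 TPM in parental anti-PD-1, and 40.47, 36.49 and 85.76 TPM in parental isotype. All 6 UV2 libraries lay above all 6 parental anti-PD-1 and isotype libraries, the lowest UV2 value being 89.18 and the highest of those parental values 86.96 TPM. H2-DMb1 averaged 433 ± 118, 254 ± 136, 90.3 ± 25.9, 92.9 ± 35.9 and 71 ± 45 TPM in UV2 anti-PD-1, UV2 isotype, parental triple therapy, parental anti-PD-1 and parental isotype (SD, n = 3).

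H2-DMb2, the second DM beta chain gene, was the exception in its order. It was at 10.31, 7.41 and 16.38 TPM in UV2 anti-PD-1, 9.92, 19.32 and 15.09 TPM in UV2 isotype, 4.12, 2.72 and 4.40 TPM in parental triple therapy, 6.84, 8.65 and 3.25 TPM in parental anti-PD-1, and 2.80, 4.25 and 4.68 TPM in parental isotype. UV2 isotype had the highest mean, with libraries that overlapped those of UV2 anti-PD-1. H2-Oa and H2-Ob encode DO, an inhibitor of DM found mainly in B cells and some dendritic cells, and both were low. H2-Oa averaged 5.96 ± 1.7, 3.91 ± 0.582, 0.797 ± 0.863, 2.46 ± 1.28 and 1.66 ± 0.583 TPM, and H2-Ob 2.74 ± 0.803, 2.35 ± 0.57, 1.01 ± 0.421, 1.11 ± 0.586 and 1.37 ± 0.659 TPM, in UV2 anti-PD-1, UV2 isotype, parental triple therapy, parental anti-PD-1 and parental isotype (SD, n = 3). Across the 15 libraries the ratio of the highest to the lowest value ran from 5.74 for H2-Ob to 33.3 for H2-Oa, and was 16.9 for H2-Ab1 and 13.5 for Ciita.

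The comparison of the lines asked how UV2 tumours differed from parental tumours. Pooled over isotype and anti-PD-1, all 10 class II genes were called higher in UV2 tumours. A gene counts as called where its adjusted p was under 0.05 (Benjamini-Hochberg over the whole table, limma on log2(TPM + 1), a scale that understates the change of low genes), and 13.4% of all genes tested were called higher in this comparison. The median log2 fold change was 1.93 over the 10 genes and -0.12 over all genes. H2-Eb1 rose by 2.19 ± 0.45 (limma adjusted p = 0.00482), H2-Ab1 by 2.15 ± 0.43 (adjusted p = 0.00448) and H2-DMb1 by 2.04 ± 0.34 (adjusted p = 0.00217), each with its standard error. H2-Aa rose by 2.03 ± 0.43, Cd74 by 1.94 ± 0.41, Ciita by 1.38 ± 0.36, H2-DMb2 by 1.22 ± 0.25, H2-Oa by 0.98 ± 0.25 and H2-Ob by 0.68 ± 0.20. H2-DMa (1.91 ± 0.30, limma adjusted p = 0.00164) was the only member whose 6 UV2 libraries lay above all 6 parental libraries, a separation that 4.46% of all genes tested showed in this direction.

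The length trend of the libraries moved with this difference. Over the 15 libraries it correlated with the mean level of the 10 genes at r = -0.776, and at r = -0.586 after centring each group on its mean. Per gene r ran from -0.820 for H2-DMb1 to -0.327 for Ciita, whose longest transcript (6007 bases) is the longest of the 10. That of H2-Ab1 is 1212 bases, against a median of 3330 over the genes used for the trend. With the trend of each library as a covariate, 1 of 10 genes was called in the pooled comparison (H2-DMa, 1.30, limma adjusted p = 0.0473), against 2.65% of genes tested, all 10 differences stayed positive, and their median was 1.27. With the trend subtracted from every gene instead, 10 of 10 were called, against 12.2% of genes with a length, with a median of 1.68. The part of the length trend in the line difference was not tested beyond these fits.

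**Figure D2:**
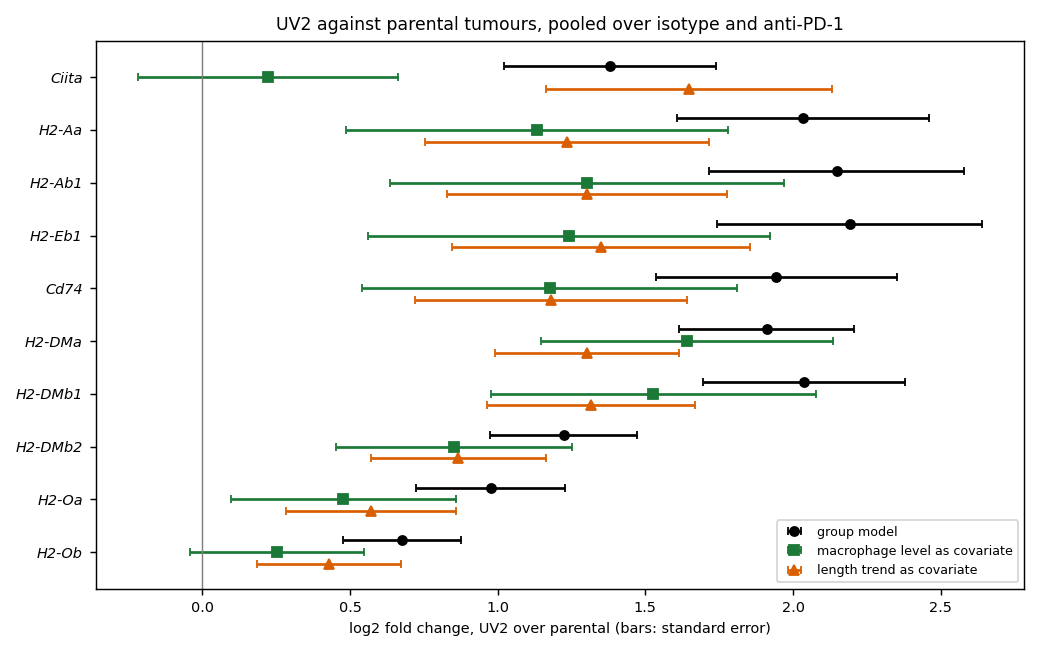
Log2 fold change of each class II gene, UV2 over parental, pooled over isotype and anti-PD-1 (points, with the standard error as bars), in the group model, with the macrophage level as covariate and with the length trend as covariate. All 10 genes lie right of 0 in the 3 fits, and Ciita is nearest to 0 with the macrophage level as covariate (0.22 ± 0.44).

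Within each treatment the same direction was found for all 10 genes. Under anti-PD-1, 8 of 10 were called higher in UV2 tumours, against 9.31% of genes tested, and the median was 2.20 against -0.21 over all genes. H2-Eb1 rose by 2.57 ± 0.63 (limma adjusted p = 0.0209), H2-Ab1 by 2.51 ± 0.61, H2-Aa by 2.40 ± 0.60, Cd74 by 2.31 ± 0.58, H2-DMb1 by 2.25 ± 0.48, H2-DMa by 2.14 ± 0.42, H2-Oa by 1.05 ± 0.36 and H2-Ob by 0.84 ± 0.28. Ciita (1.19 ± 0.51, limma adjusted p = 0.0900) and H2-DMb2 (0.79 ± 0.35, adjusted p = 0.102) did not pass. The UV2 libraries lay above the parental ones for 9 of 10 genes, all but H2-DMb2, against 16.9% of genes tested. None of the 10 was called without UV2 anti-PD-1 replicate 3 or without parental anti-PD-1 replicate 3, and 6 to 8 were called without each of the other 4 libraries. The share of all genes called in these fits is not given, so the counts show only how far the calls rest on single libraries. With the length trend as covariate 0 of 10 were called, against 0.00736% of all genes, and with the trend subtracted 7 of 10, against 7.94%.

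Under isotype antibody 1 of 10 genes was called, H2-DMb2 (1.66 ± 0.35, limma adjusted p = 0.0425), against 0.905% of genes tested. The other 9 differences did not pass, for example 1.79 ± 0.61 for H2-Ab1 (limma adjusted p = 0.143), 1.68 ± 0.42 for H2-DMa (adjusted p = 0.0692), 1.58 ± 0.51 for Ciita (adjusted p = 0.124), 1.58 ± 0.58 for Cd74 (adjusted p = 0.170), 0.90 ± 0.36 for H2-Oa and 0.52 ± 0.28 for H2-Ob. The median was 1.66, against -0.04 over all genes. The groups did not overlap for Ciita, H2-Oa, H2-DMb2 and H2-DMa (4 of 10), against 10.4% of genes tested. The count of calls rests on few libraries and on the processing. The H2-DMb2 call was lost with the length trend as covariate (1.46, limma adjusted p = 0.0606), and also under no filter, either other scaling, the compared groups alone and the replicate block, where its log2 fold change was 1.59 to 1.72. Without UV2 isotype replicate 1, 7 of 10 genes were called, without parental isotype replicate 3, 6, and without any of the other 4 libraries, 0. These counts too stand without the share of all genes called in the same fits, and show only the dependence on single libraries.

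Treatment comparisons within a line asked whether therapy changed class II message. In UV2 tumours, anti-PD-1 against isotype gave 0 called members of 10 in limma, against 0.0147% of genes tested. Before adjustment 4 had p under 0.05, H2-Eb1 (1.40 ± 0.63, limma adjusted p = 0.543), H2-Ab1 (1.39 ± 0.61, adjusted p = 0.542), H2-Aa (1.37 ± 0.60) and Cd74 (1.32 ± 0.58). For these 4 genes the UV2 anti-PD-1 libraries lay above all UV2 isotype libraries, as they did for 5.7% of genes tested. H2-DMb1 (0.91 ± 0.48), H2-DMa (0.88 ± 0.42), Ciita (0.58 ± 0.51), H2-Oa (0.48 ± 0.36) and H2-Ob (0.15 ± 0.28) were positive and H2-DMb2 (-0.37 ± 0.35) was negative.

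In parental tumours, anti-PD-1 against isotype gave 0 of 10 calls in limma and 0 of 10 with an unadjusted p under 0.05, against 0% of genes called. Ciita differed by 0.97 ± 0.51 and H2-Ab1 by 0.67 ± 0.61. Whether anti-PD-1 acted differently in the lines was tested by an interaction term, which called 0 of 10 in limma, 0 of 10 at an unadjusted p under 0.05 and 0% of all genes. The term was 0.72 ± 0.86 for H2-Ab1 and -0.87 ± 0.50 for H2-DMb2.

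Parental triple therapy tumours had no called class II gene against parental isotype (0 of 10, none with an unadjusted p under 0.05, against 0.0221% of genes) or against parental anti-PD-1 (0 of 10, 1 with an unadjusted p under 0.05, against 0% of genes). Against isotype 3 of 10 differences were positive, those of Ciita, H2-DMb1 and H2-DMa. Ciita differed by 1.08 ± 0.51 (limma adjusted p = 0.405) and H2-Ab1 by -0.35 ± 0.61. For Ciita the 3 triple therapy libraries lay above the isotype libraries, the lowest at 5.99 and the highest isotype value at 5.25 TPM. The share of all genes that separated in this way is not given, so nothing is read from it. The sign for H2-Ab1 turned without parental isotype replicate 3. Against anti-PD-1, H2-Oa differed by -0.98 ± 0.36 (limma adjusted p = 0.415) and H2-Ab1 by -1.03 ± 0.61. Comparisons that use the same parental isotype or anti-PD-1 libraries share them and are not independent.

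The genes were next set against macrophage content, since macrophages can carry class II. The macrophage level was the mean log2(TPM + 1) of 18 markers, none of them a class II gene. It averaged 7.91 ± 0.26 in UV2 anti-PD-1, 7.41 ± 0.30 in UV2 isotype, 7.50 ± 0.36 in parental triple therapy, 6.97 ± 0.36 in parental anti-PD-1 and 6.91 ± 0.21 in parental isotype (SD, n = 3). The macrophage levels of parental triple therapy and UV2 isotype tumours, which differ in line and treatment, overlapped. The mean class II level of the triple therapy tumours was 5.40, 5.32 and 5.89, against 6.20, 7.61 and 7.40 in UV2 isotype, without overlap.

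Ciita followed the macrophage level most closely. Over 15 libraries its Pearson r was 0.816 and its Spearman rho 0.800, with permutation p-values adjusted over the 10 genes of 0.0026 and 0.0056. Its r was 0.731 without the 2 libraries farthest from the median macrophage level (parental anti-PD-1 replicate 3 and UV2 anti-PD-1 replicate 1) and 0.712 after centring on group means. For the other 9 genes r ran from 0.472 (H2-DMb2) to 0.705 (H2-DMb1) and rho from 0.436 to 0.611. Adjusted permutation p-values were 0.0175 to 0.076 for r and 0.06 to 0.11 for rho, so 7 of these 9 passed by r and 0 by rho. Without the 2 libraries their r was 0.368 to 0.603, and within groups 0.198 for H2-DMa to 0.538 for H2-Ob. The relation of H2-DMa to the macrophage level was therefore mostly between groups.

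**Figure D3:**
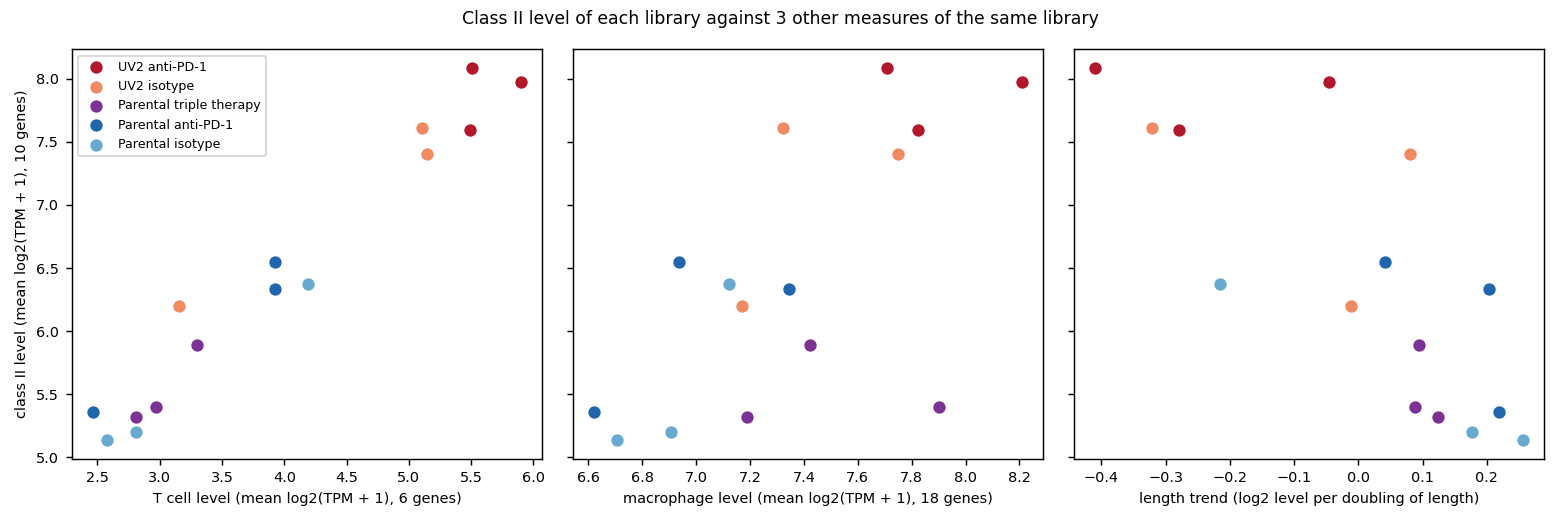
Mean class II level of each library (vertical axis, mean log2(TPM + 1) of 10 genes) against its T cell level, its macrophage level and its length trend, coloured by group. The points lie closest to a line for the T cell level, and parental triple therapy replicate 1 combines a macrophage level of 7.90 with a class II level of 5.40.

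Which macrophage markers were used mattered. C1qc, C1qa and C1qb, subunits of complement C1q made by tissue macrophages, tracked the class II mean at r = 0.951, 0.943 and 0.931, and Aif1, an actin-binding protein of macrophages, at 0.902. Csf1r, the receptor that macrophages need to survive, was at 0.676, Cd68, a lysosomal protein, at 0.162, and the scavenger and engulfment receptors Msr1 and Mertk at -0.402 and -0.587. The markers most like the class II genes, the C1q genes and Aif1, were also short (C1qa 1040 bases, Aif1 875 bases). Csf1r (4701 bases) and Mertk (4302 bases) were long. These lengths are of the longest annotated transcripts, which need not be the expressed ones. Taken so, length did not order all markers. Cd68 (1230 bases) and Cd14 (1641 bases) were short with r = 0.162 and 0.212, and Trem2 (4784 bases) was long with r = 0.676. Over the 18 markers, r with the class II mean and log2 transcript length correlated at -0.547. These are descriptions over 15 libraries of shared TPM scale, and the part of transcript length in them was not tested.

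**Figure D4:**
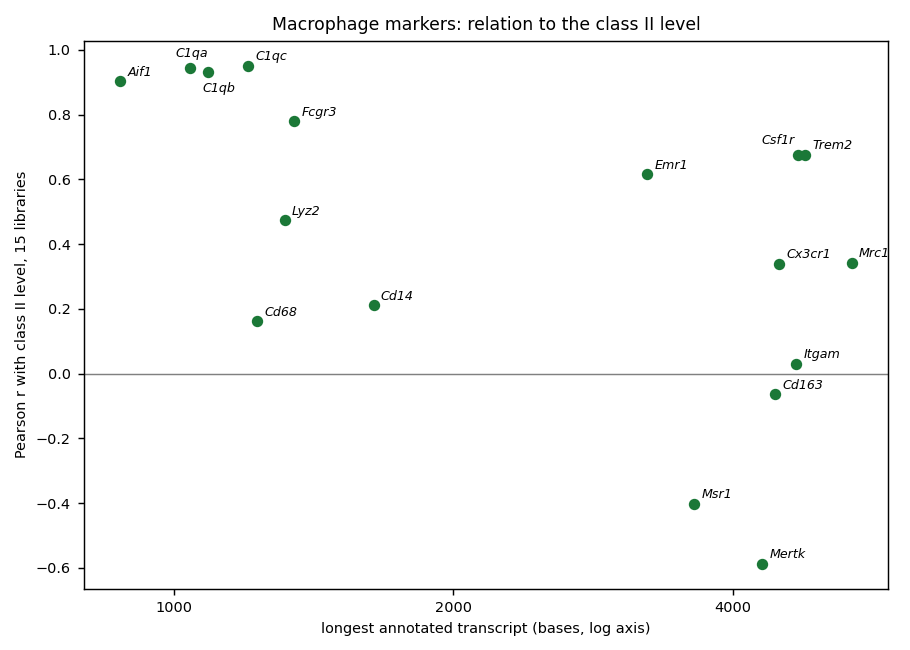
Pearson r of 17 macrophage markers with the mean class II level over 15 libraries, against the lengths of their longest annotated transcripts (log axis). Of the 18 markers, 1 is not shown. The 3 C1q genes and Aif1 lie at the upper left, above 0.9, and Msr1 and Mertk at the lower right, below 0. Emr1 is the table's symbol for the macrophage receptor F4/80.

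With the macrophage level fitted as a covariate, 0 of 10 genes were called in limma in any of the 8 comparisons. Of the 10, 2 had an unadjusted p under 0.05 in the pooled comparison and 0 to 5 in the others. Within each treatment the macrophage levels of the lines did not overlap. They were 7.71 to 8.21 in UV2 and 6.62 to 7.34 in parental tumours under anti-PD-1, and 7.17 to 7.75 and 6.70 to 7.12 under isotype antibody. There the fit extends a trend and compares no tumours of equal level, so lost calls do not show that macrophage content accounts for the difference. The share of all genes called was 0.0368% for UV2 over parental under isotype, 0.00736% under anti-PD-1 and pooled, and 0% in the other comparisons. All 10 pooled differences stayed positive, with a median of 1.15 against -0.29 over all genes. H2-DMa kept most of its difference (1.64 ± 0.50, limma adjusted p = 0.142), H2-DMb1 stood at 1.53 ± 0.55, H2-Ab1 at 1.30 ± 0.67 (limma adjusted p = 0.217) and Ciita at 0.22 ± 0.44 (limma adjusted p = 0.736). Parental triple therapy lay below parental anti-PD-1 for 10 of 10 genes with this covariate, 5 of them with an unadjusted p under 0.05 and none called. H2-Ab1 differed there by -1.65 ± 0.69 and H2-Oa by -1.34 ± 0.40.

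The answer depended on how macrophage content was taken out. With the level subtracted from every gene, 7 of 10 were called in the pooled comparison (background 3.07%) and 6 of 10 under anti-PD-1 (background 1.8%). With the covariate built from 5 of the 18 markers, without the C1q genes, 8 of 10 (background 12.4%) and 6 of 10 (background 8.95%) were called. With the covariate built from C1qa, C1qb and C1qc, 0 were called, the pooled median was -0.19, and the signs for H2-Ab1 (-0.58) and H2-DMb1 (-0.16) turned. Without parental isotype replicate 3, 2 of 10 were called with the macrophage level of 18 markers as covariate, a count given without the share of all genes called in that fit.

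The difference of each gene from the macrophage level was also compared directly between 6 UV2 and 6 parental libraries of the isotype and anti-PD-1 groups. H2-Ab1 stood 3.68 ± 0.85 above it in UV2 tumours and 2.26 ± 0.79 above it in parental tumours on the log2 scale (SD, n = 6 each). The difference of 1.42 had an adjusted p of 0.0390 (two-sided exact permutation test, adjusted over 18 quantities). H2-Eb1 (1.47), H2-Aa (1.31), H2-DMb1 (1.31), Cd74 (1.22) and H2-DMa (1.19) gave the same adjusted p. For these 6 genes 5 of 6 UV2 libraries lay above all parental ones, the exception being UV2 isotype replicate 1. Ciita (0.66, exact permutation, adjusted p = 0.0909), H2-DMb2 (0.50), H2-Oa (0.25) and H2-Ob (-0.05) did not pass. Each of the 6 passed in 3 of the 12 fits that left out 1 library, with adjusted p up to 0.0779 in the other fits (exact permutation). For H2-Ab1 the 3 were those without UV2 isotype replicate 1, parental anti-PD-1 replicate 2 or parental isotype replicate 3.

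By the median over the 10 genes, the T cell, dendritic cell, B cell and monocyte levels had higher correlations with class II message than the macrophage level had, differences that were not tested. The median r of the 10 genes over 15 libraries was 0.948 with the T cell level, 0.881 with the dendritic cell level, 0.763 with the B cell level, 0.742 with the monocyte level, 0.732 with Ptprc (the pan-leukocyte gene CD45) and 0.620 with the macrophage level. It was 0.10 with skeletal muscle, -0.114 with endothelial and -0.154 with keratinocyte genes. Centred on group means, the medians were 0.878 for T cells, 0.774 for B cells, 0.656 for dendritic cells, 0.618 for monocytes, 0.606 for Ptprc and 0.439 for macrophages. The B cell level thus stood above the dendritic cell level within groups. Ciita was an exception, with r = 0.774 with the T cell level, 0.816 with the macrophage level and 0.904 with Ptprc. The lists also differ in transcript length. The longest transcripts of the T cell genes ran from 1483 to 3128 bases, below the median of 3330 over the genes used for the length trend. Those of the macrophage markers ran from 875 to 5374 bases. The part of transcript length in these correlations was not tested.

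The T cell level was 5.90, 5.49 and 5.51 in UV2 anti-PD-1, 3.15, 5.10 and 5.14 in UV2 isotype, 2.97, 2.81 and 3.30 in parental triple therapy, 3.93, 3.92 and 2.46 in parental anti-PD-1, and 2.81, 2.58 and 4.19 in parental isotype. The same 3 libraries that stood apart in class II message stood apart here. The monocyte level (5 of 6 markers called higher in UV2 tumours, pooled) was 6.68 to 7.44 in UV2 and 4.34 to 6.02 in parental anti-PD-1 and isotype libraries, without overlap. The dendritic cell level was 2.87 to 3.72 in UV2 and 1.83 to 3.01 in those parental libraries, with 8 of 13 markers called higher, and macrophage markers were called higher in 10 of 18, against 13.4% of all genes tested in this pooled comparison. Of the B cell markers, 4 of 10 passed the filter and 1 was called, while the defining marker Ms4a1 was near 0 (0 to 0.91 TPM). Mouse T cells carry little class II of their own, and the part of each cell type in the class II level was not tested.

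The genes most like the class II mean were found among 13580 others by Pearson r over 15 libraries. The leading 10 were Arl5c (0.991), Cd3d (0.990), Lck (0.988), Cd5 (0.984), Lat (0.984), Cd247 (0.980), Nkg7 (0.980), Cd3g (0.979), Ltb (0.978) and Ptprcap (0.977). Cd3d, Cd3g and Cd247 are chains of the T cell receptor complex, and Lck and Lat are its signalling proteins. Cd3d averaged 64.8 TPM in UV2 anti-PD-1, 32.0 in UV2 isotype, 5.4 in parental triple therapy, 9.9 in parental anti-PD-1 and 9.6 in parental isotype. After centring on group means the leading 10 were Cd3d (0.992), Lck (0.975), C1qc (0.964), C1qb (0.964), Cd79b (0.962), Arl5c (0.961), Cd3g (0.960), Aldh1b1 (0.953), Ptprcap (0.953) and Ms4a4b (0.950). Arl5c, Cd3d, Lck, Cd3g and Ptprcap were among the leading 10 on both measures, and 2 C1q genes were among them only after centring.

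Among themselves the class II genes formed layers. Cd74, H2-Aa, H2-Ab1 and H2-Eb1 correlated with each other at 0.998 to 0.999, and at 0.993 to 0.998 after centring. H2-DMa and H2-DMb1 correlated at 0.996, and with the first 4 genes at 0.955 to 0.963. H2-Oa and H2-Ob correlated at 0.808. Over the 15 libraries Ciita was the least tied, from 0.489 with H2-Oa to 0.779 with H2-DMb1. Within groups the r of Ciita with H2-Oa was 0.007. There H2-Oa was less tied than Ciita to Cd74, H2-Aa, H2-Ab1, H2-Eb1, H2-DMa and H2-DMb1 (0.281 to 0.408 against 0.409 to 0.552). With H2-DMb2 and H2-Ob the order was the reverse (0.587 and 0.584 for H2-Oa, 0.437 and 0.493 for Ciita).

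Ratios of TPM show where the genes parted. H2-Aa to H2-Ab1 stayed between 1.11 and 1.33 in all 15 libraries and H2-Eb1 to H2-Ab1 between 0.582 and 0.687. Cd74 to H2-Ab1 ran from 2.65 to 3.52, with group medians of 2.73 in UV2 anti-PD-1, 2.91 in UV2 isotype, 3.29 in parental triple therapy, 3.33 in parental anti-PD-1 and 3.47 in parental isotype. On the log2 scale Cd74 minus H2-Ab1 was lower in UV2 than in parental isotype and anti-PD-1 tumours by 0.20 (UV2 minus parental -0.20, exact permutation, adjusted p = 0.0390, n = 6 each). H2-Aa minus H2-Ab1 differed by -0.11 with the same adjusted p, and by 0.28 once the length trend was removed (exact permutation, adjusted p = 0.0959). That removal takes H2-Aa as 3223 bases and H2-Ab1 as 1212, although both followed the trend alike (r = -0.778 and -0.786). It widened the SD of this ratio from 0.064 to 0.229 in UV2 and from 0.060 to 0.260 in parental tumours. The turn of sign depends on the lengths assigned.

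The DO genes were also set against H2-DMa. H2-Oa minus H2-DMa was -5.27 ± 0.52 in UV2 and -4.33 ± 0.30 in parental isotype and anti-PD-1 tumours, a difference of -0.93. H2-Ob minus H2-DMa differed by -1.23 (exact permutation, adjusted p = 0.0390 for both, SD, n = 6 each). Both differences kept their direction and passed with the length trend removed (-1.10 and -1.12, exact permutation, adjusted p = 0.0292). Low values were not particular to UV2 tumours. Parental triple therapy, outside this comparison, was at -4.11, -5.83 and -6.09 for H2-Oa minus H2-DMa. For H2-Ob minus H2-DMa it was at -4.30, -5.44 and -5.56. H2-Oa and H2-Ob were at a few TPM, so the pseudocount matters. With 0.1 in place of 1 the differences were smaller, -0.64 for H2-Oa minus H2-DMa (exact permutation, adjusted p = 0.0623) and -0.89 for H2-Ob minus H2-DMa (adjusted p = 0.0433, exact permutation). As for the macrophage differences, each of these 4 ratio differences passed in 3 of the 12 fits that left out 1 library.

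H2-DMb2 to H2-DMb1 was 0.0226 to 0.0293 in UV2 anti-PD-1, below every other library of the series (0.0337 to 0.10). Over UV2 against parental tumours its log2 difference of -0.81 did not pass (exact permutation, adjusted p = 0.0850). Parental triple therapy stood apart in a different ratio. H2-DMa to H2-Ab1 was 0.167 to 0.207 there, against 0.0643 to 0.140 in all other libraries, and Ciita to H2-Ab1 was 0.0180 to 0.0308, against 0.00325 to 0.0136. The triple therapy tumours thus held the most Ciita and H2-DMa message per H2-Ab1 message. These contrasts of 3 libraries were noticed in the values and were not tested.

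**Figure D5:**
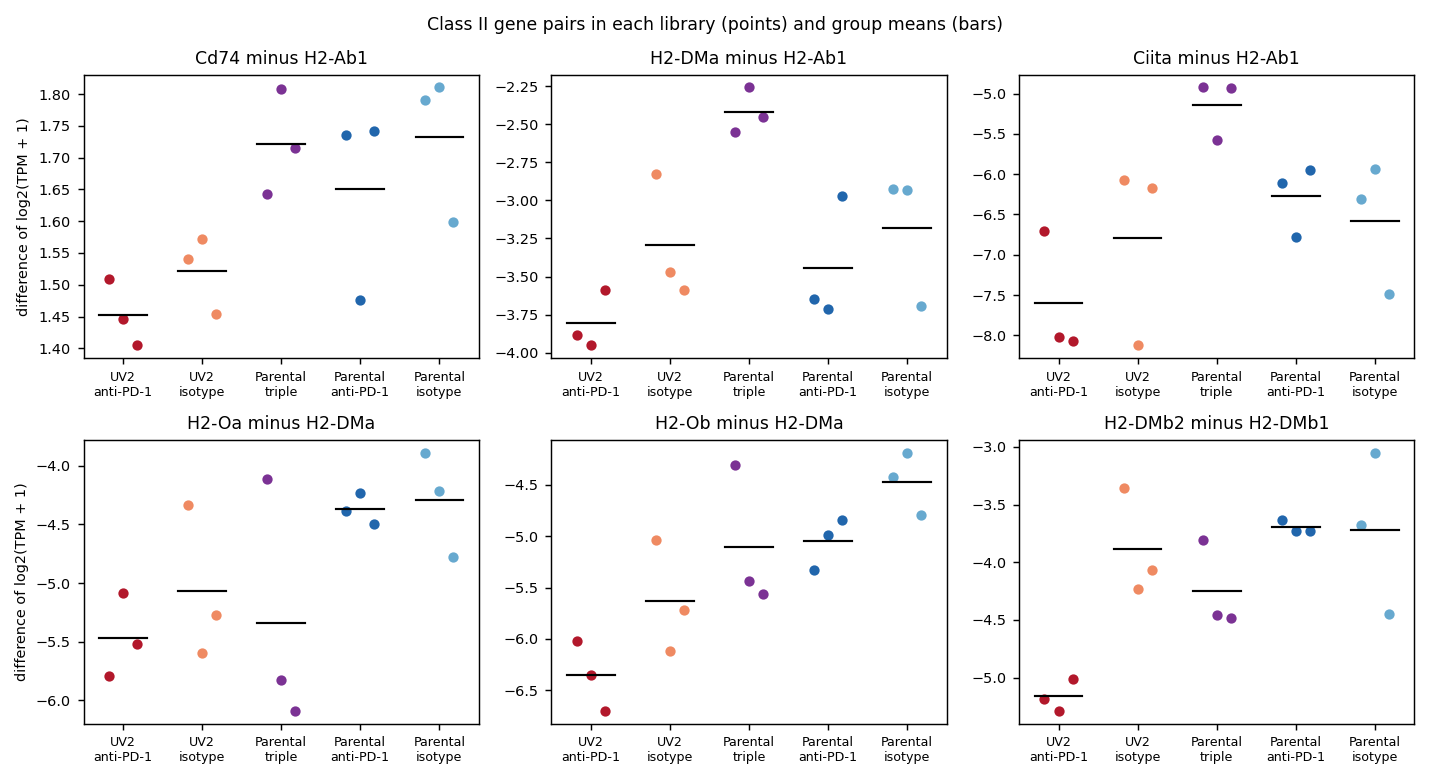
Differences of log2(TPM + 1) between 6 pairs of class II genes in each library (points) with group means (bars). Parental triple therapy lies above all other groups for H2-DMa and for Ciita relative to H2-Ab1, and UV2 anti-PD-1 lies below all others for H2-DMb2 relative to H2-DMb1.

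The wider class II pathway was described with lists of other genes, in the pooled comparison of UV2 with parental tumours, in which 13.4% of all genes tested were called higher. Of 12 genes of class II transcription, 4 were called higher, among them the transcription factors Irf1 (1.15 ± 0.19), Irf8 (1.48 ± 0.21) and Sfpi1, the older symbol of PU.1 (1.42 ± 0.20). Rfx5 (0.06 ± 0.17), Rfxap (0.08 ± 0.12) and Rfxank (0.07 ± 0.12), the RFX subunits that hold the X box, were not called, and the list median was 0.07. Of 6 processing genes measured, 3 were called higher, Ctss, the protease that trims Cd74 (1.33 ± 0.28), Ifi30, a thiol reductase of lysosomes (1.56 ± 0.24), and Lgmn, an endosomal protease (0.54 ± 0.13).

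Of 6 interferon gamma genes, 3 were called higher, the cytokine Ifng (1.83 ± 0.36), its receptor chain Ifngr1 (0.55 ± 0.15) and the feedback inhibitor Socs1 (1.69 ± 0.26). Ifng was at 29.52, 18.81 and 30.92 TPM in UV2 anti-PD-1, 3.32, 14.79 and 12.61 TPM in UV2 isotype, 2.42, 7.71 and 7.66 TPM in parental triple therapy, 3.42, 5.12 and 5.12 TPM in parental anti-PD-1, and 2.32, 1.54 and 5.41 TPM in parental isotype. UV2 isotype replicate 1 was again among the parental libraries. Of the T cell receptors for class II, Lag3 was called (1.77 ± 0.36, limma adjusted p = 0.00465) and Cd4 was not (0.62 ± 0.37, adjusted p = 0.194). Over these 4 lists 11 of 26 genes were called higher in the pooled comparison (13.4% of all genes), 10 under anti-PD-1 (9.31% of all genes) and 2 under isotype antibody (0.905% of all genes), the last being Irf8 and Socs1. In the treatment comparisons limma called 0 of 26, with an unadjusted p under 0.05 for 6 in UV2 anti-PD-1 against UV2 isotype, 7 in parental triple therapy against parental isotype, 4 in triple therapy against parental anti-PD-1 and 2 in parental anti-PD-1 against parental isotype. In parental triple therapy, Irf8 (0.96 ± 0.29) and Irf1 (0.90 ± 0.27) were, like Ciita, above parental isotype without passing the adjustment (limma adjusted p = 0.32 for both).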

How the data were processed

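The authors deposited gene TPM values for 15 libraries; per the submitters' processing notes Bowtie2, RSEM and the builds mm10 and GRCm38 were used, and versions are not given in the sources used here. All columns were used, leaving 0 unused. TPM carries no read depth, so no counting intervals are given. From the deposited TPM, log2(TPM + 1) was analysed for genes with at least 1 TPM in at least 3 libraries, in a model with a coefficient for each of 5 groups (limma 3.58.1, R 4.3.3, trend and robust, 10 residual degrees of freedom). Calls used a two-sided p under 0.05 after Benjamini-Hochberg adjustment over the genes tested. The macrophage level entered as a covariate (9 degrees of freedom). Ratios and differences from the macrophage level were compared by exact permutation of 6 against 6 libraries, and correlations by 100000 permutations, in Python 3.11.15 with numpy 2.4.6, scipy 1.17.1 and pandas 2.3.3; figures used matplotlib 3.10.9.

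Named were all 10 class II genes, up to 4 called genes of each other list with the smallest p (or 2 where none was called), and the 10 genes most alike by each correlation. Genes of the other lists named beyond this rule (the RFX subunits, Cd4, single macrophage and B cell markers, Krt14, Acta1) were chosen after their values were seen. The members and lists were chosen with earlier results of these data known. A few genes of the other lists are not reported here by name. Older symbols (Emr1, Sfpi1, Chi3l3) were matched through a synonym table. Transcript length was the longest transcript in GENCODE M21, which need not be the expressed one, and was found for 93.9% of genes tested. The limma scripts were tested on simulated data. Alternatives were a pseudocount of 0.1, 2 other filters, 2 scalings, a fit on the compared groups alone, a replicate block, library weights, other macrophage measures and leaving out libraries. The muscle, T cell and monocyte covariates, the length trend fits and the left-out libraries for ratios were added after seeing the data.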

Additional observations from a re-analysis of the deposited data

How the results depend on the processing

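Under isotype antibody the count of class II genes called in UV2 over parental tumours was 0 with no filter, with median-of-ratios scaling, with quantile normalization, with the compared groups alone and with the length trend as covariate, 2 with the length trend removed, 9 with library weights (27.3% of all genes called in either direction), and 0 to 7 on leaving out 1 library. Under anti-PD-1 it was 0 with the length trend as covariate and 0 to 8 on leaving out 1 library, and pooled it was 1 with the length trend as covariate and 9 to 10. Library weights gave 5 calls for UV2 anti-PD-1 over UV2 isotype (21.4% of all genes), 9 for parental triple therapy over isotype (55.7%) and 4 over anti-PD-1 (33.3%); they gave 1 library, parental triple therapy replicate 3, a weight of 73.8 and the others 0.179 to 10.4. Given the macrophage level, the count under anti-PD-1 was 6 with the level subtracted and 6 with 5 markers, and pooled 7, 8, and 1 with the length trend removed, with 0 to 2 on leaving out 1 library. Counts without a share of all genes beside them describe only the dependence on the processing, and its cause was not tested.

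Among the single-gene differences and ratios printed in the report, the signs that turned were as follows. H2-Ab1, parental triple therapy vs parental isotype, was 0.66 with library weights and -0.71 to 0.28 on leaving out 1 library. H2-Ab1, anti-PD-1 effect in UV2 minus in parental, was -0.020 with the length trend as covariate. H2-Ab1 pooled, given macrophage level, was -0.58 with the C1q genes and -0.011 with the monocyte level, and H2-DMb1 was -0.16 with the C1q genes. H2-Ob minus macrophage level was 0.31 with a pseudocount of 0.1 and -0.18 to 0.036 on leaving out 1 library, and H2-Aa minus H2-Ab1 was 0.28 with the length trend removed.

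Libraries of different groups with the same replicate number were not more alike than those with different numbers. Of 30 same-number pairs, 10 had a correlation of deviations above 0.1 (median -0.075), against 25 of 60 different-number pairs (median 0.039). With the replicate block the counts were 0 under isotype, 6 under anti-PD-1 and 10 pooled, given without the share of all genes called in that fit.

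Median-of-ratios scaling moved the median of all genes by 0.24 under anti-PD-1 and 0.15 pooled. The split of all called genes went to 1959 higher and 1782 lower under anti-PD-1, against 1265 and 2321 as deposited. The pooled median of the class II genes was 2.10 under this scaling. No depth is known, so low values such as those of H2-Oa and H2-Ob carry unknown counting error.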
